A study of Mus musculus with 18 samples.

Results

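Described here are 9 genes of the cholinergic neuron programme and of the Gbx homeobox and Zic zinc finger families: Chat, Slc18a3, Slc5a7, Ngfr, Gbx1, Gbx2, Zic1, Zic2 and Zic4, out of 21631 protein-coding genes (autosomes plus X). They were chosen by name, and each was measured by the intervals that overlap its gene body extended by 2500 bp on each side, in GRCm38. H3K27me3, the repressive trimethylation of lysine 27 on histone H3, was profiled by bulk CUT&Tag, which tethers a transposase to an antibody and thereby inserts sequencing adapters beside the marked nucleosomes. The tissue was the medial ganglionic eminence (MGE), a transient swelling of the ventral embryonic forebrain, at embryonic days E12.5 and E15.5 in the mouse. There were 3 WT and 3 KO libraries per stage, 12 in all, numbered as biological replicates in the labels, and another 6 samples, heterozygous, bring the series to 18 but were not analysed here. KO embryos were labelled Nkx2.1-CreC/+;Ezh2;Ai9F/+ and WT embryos only WT. Both came from Nkx2.1-CreC/C;Ezh2F/+ males and Ai9F/F;Ezh2F/+ females, a cross in which every embryo inherits 1 Cre allele and 1 Ai9 allele, WT included. Ai9 is a Cre-dependent tdTomato reporter.

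Several features of the design bound what can be read. The Cre acts only in cells that express Nkx2-1 or descend from them, so other cells in a dissection keep Ezh2. The whole MGE was taken at E12.5, whereas at E15.5 the dissection was guided by the reporter, so stage and dissection cannot be told apart. MGEs from embryos of one genotype were combined where applicable, so a library may hold several embryos, and the p-values measure the spread between these libraries. In bulk nuclei, a lower count from fewer marked cells and one from less mark per cell cannot be told apart. Ezh2 had no interval in its own window in any library. Lists of marked intervals do not show whether a gene was deleted, so the deletion of Ezh2 could not be checked here.

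EZH2 is a catalytic subunit of Polycomb repressive complex 2, which places H3K27me3 over silent developmental genes, often from CpG-rich start sites. Cholinergic neurons of the basal forebrain and striatum descend largely from the Nkx2-1 territory. They share a machinery of acetylcholine synthesis (Chat), loading into vesicles (Slc18a3) and choline reuptake (Slc5a7), and those of the basal forebrain carry the neurotrophin receptor p75 (Ngfr). Gbx1 and Gbx2 encode homeodomain factors expressed in the ventral forebrain, and Gbx2 is also known for its part at the midbrain-hindbrain boundary. Zic1, Zic2 and Zic4 encode zinc finger factors of the dorsal midline, septum and cerebellum.

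The start-site sequences are shown because the member without an interval, Slc5a7, had the fewest CpG of those with a sequence. A start-site sequence was found in RefSeq (GRCm38.p6) for 7 of the 9 members, all but Gbx1 and Zic2. The 250 bases before the start are given for 4 of them, 5′ to 3′ on the minus strand, with each CpG in capitals. They lie at chr14:32465910-32466159 for Chat, chr17:54299035-54299284 for Slc5a7, chr1:89931177-89931426 for Gbx2 and chr11:95587699-95587948 for Ngfr.
Chat: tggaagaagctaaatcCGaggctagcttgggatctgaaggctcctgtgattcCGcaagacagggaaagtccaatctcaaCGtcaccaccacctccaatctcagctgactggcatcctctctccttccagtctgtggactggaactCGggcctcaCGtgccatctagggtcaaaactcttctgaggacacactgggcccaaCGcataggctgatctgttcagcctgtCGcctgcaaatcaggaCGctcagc
Slc5a7: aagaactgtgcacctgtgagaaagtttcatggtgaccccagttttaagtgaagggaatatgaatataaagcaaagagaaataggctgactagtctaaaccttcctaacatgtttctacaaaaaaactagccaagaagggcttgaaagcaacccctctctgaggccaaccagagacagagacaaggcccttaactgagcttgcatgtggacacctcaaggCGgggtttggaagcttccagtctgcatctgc
Gbx2: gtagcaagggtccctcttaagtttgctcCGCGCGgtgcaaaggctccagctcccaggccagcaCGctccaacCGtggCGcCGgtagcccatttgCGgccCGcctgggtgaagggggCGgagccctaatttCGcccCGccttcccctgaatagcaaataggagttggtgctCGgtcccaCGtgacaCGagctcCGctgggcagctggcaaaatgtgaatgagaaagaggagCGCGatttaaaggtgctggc
Ngfr: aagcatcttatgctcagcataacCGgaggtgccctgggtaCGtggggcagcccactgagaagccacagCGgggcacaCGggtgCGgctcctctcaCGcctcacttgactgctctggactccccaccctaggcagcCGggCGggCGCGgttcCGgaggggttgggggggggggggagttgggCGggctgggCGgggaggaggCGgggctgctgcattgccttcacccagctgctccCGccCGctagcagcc

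Counts of CpG in these 250 bases ranged widely. Zic1 held 27, Slc18a3 held 21, Gbx2 held 18, Ngfr held 16, Chat held 8, Zic4 held 4 and Slc5a7 held 1. The median of all 31365 RefSeq start sites searched was 6. Start sites of Zic1, Slc18a3, Gbx2, Ngfr, Chat and Zic4 lay inside an interval in 12 of 12 libraries, and that of Slc5a7 in 0 of 12. Among all start sites, 1.645% of those with 0 to 4 CpG lay in an interval in all 12 libraries, 6.345% of those with 5 to 9, 12.04% of those with 10 to 14, 11.16% of those with 15 to 19, 10.95% of those with 20 to 24 and 10.14% of those with 25 to 56. The Zic4 start read here, at chr9:91368972, is thus CpG-poor with full coverage, and it sits in the broad interval that also spans Zic1. That start lies inside the gene, which begins at chr9:91365631, so the count of 4 does not describe the gene's outer 5′ end.

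**Figure D1:**
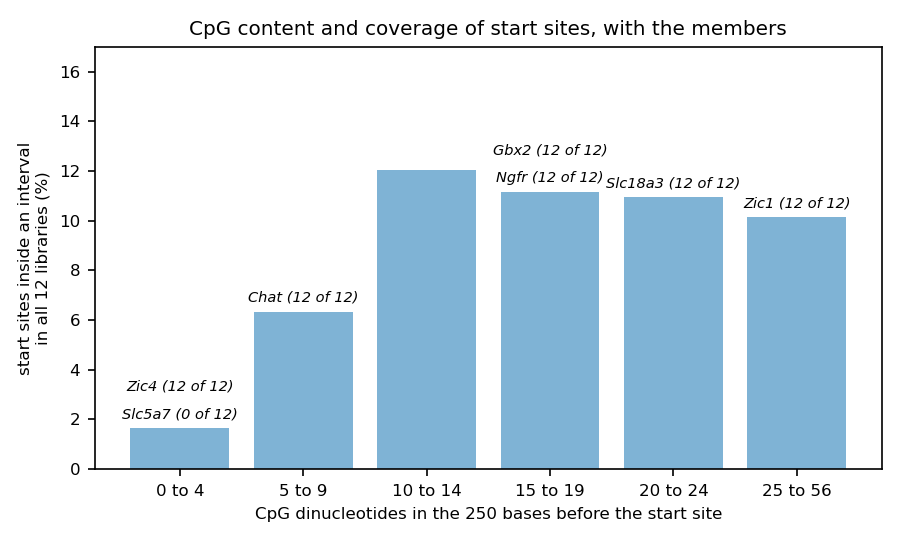
Share of start sites inside an interval in all 12 libraries (y axis, percent) by the number of CpG in the 250 bases before the start (x axis, bins); names mark the bin of each matched member with the number of its libraries that cover it. Slc5a7 and Zic4, the latter read at a start inside its gene, share the lowest bin, where 1.645% of start sites are covered, with 0 and 12 libraries.

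Of the 9 members, 8 had an interval in every library. Across all 20665 autosomal protein-coding genes, 12.06% had an interval in all 12 libraries and 61.23% in none. The 8 members fall on 6 separate stretches of DNA. Slc18a3 lies inside the Chat gene, and one interval served both. One interval spanned Zic1 and Zic4, which lie head to head, and the Zic2 interval also held Zic5, its neighbour. Counts of Chat and Slc18a3, and of Zic1 and Zic4, are therefore not independent, and 6 loci are compared below.

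Slc5a7, the high-affinity choline transporter, had no interval at chr17:54273590-54299038 or within 2500 bp of it in any library. The nearest interval lay between 1669.59 and 1819.56 kb away in 11 libraries. In E15.5 KO replicate 3 a single 200 bp window with a count of 7 lay 83.99 kb away. At the mean count of a library, its window of 30.45 kb would hold 11.44 counts in the shallowest library, E15.5 WT replicate 1, and 106.3 in the deepest, E12.5 WT replicate 2. Absence from an interval list says that no stretch passed the caller's threshold, which differs from a count of 0.

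The other cholinergic genes carried a narrow interval over their start. Chat encodes choline acetyltransferase and Slc18a3 the vesicular acetylcholine transporter. The part of the Chat and Slc18a3 interval shared by all libraries was chr14:32458401-32467600, 9.2 kb that hold the whole of Slc18a3 (chr14:32462437-32464850) and the 5′ end of Chat (chr14:32408203-32465909). It reached 1.69 to 4.09 kb before the Chat start and 7.51 to 14.51 kb into the gene. Intervals covered 100% of the Slc18a3 window in every library but only 15.96% to 27.12% of the Chat window. Most of the Chat gene body lay outside any interval.

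At Ngfr and Gbx1 the stretch shared by all libraries was narrow as well, but single intervals varied in width. The largest interval of a library ran from 11.2 to 36 kb at Ngfr and from 8.8 to 29.4 kb at Gbx1. The widest at Ngfr exceeded the narrowest at Gbx2 and Zic2, given below. At Ngfr (chr11:95568818-95587698), the stretch shared by all libraries was chr11:95577801-95589000, 11.2 kb over the 5′ part of the gene. Its intervals covered 100% of the window in E12.5 WT replicate 2 but 56.1% in the replicates 1 of WT at either stage. At Gbx1 (chr5:24504426-24526848) the shared stretch was chr5:24521401-24530200, 8.8 kb over its upper end. Covered length at Gbx1 was the most variable, from 28.98% of the window in E12.5 KO replicate 1 to 83.23% in E15.5 WT replicate 3.

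Gbx2 and the Zic genes lay in broad intervals. Gbx2 (chr1:89927962-89931176), a gene of 3.215 kb, lay in intervals of 29.6 to 61.4 kb with a shared stretch of chr1:89917001-89946600. Zic2 (chr14:122475384-122480328) lay in intervals of 30.4 to 59 kb around chr14:122461601-122492000. The Zic1 (chr9:91358058-91365768) and Zic4 (chr9:91365631-91389351) intervals were 60.4 to 76.4 kb wide, with chr9:91360201-91412400 shared by all libraries. The windows of Gbx2, Zic2 and Zic4 were covered in full in all 12 libraries, and that of Zic1 in 11, with 93.71% in E15.5 WT replicate 1.

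**Figure D2:**
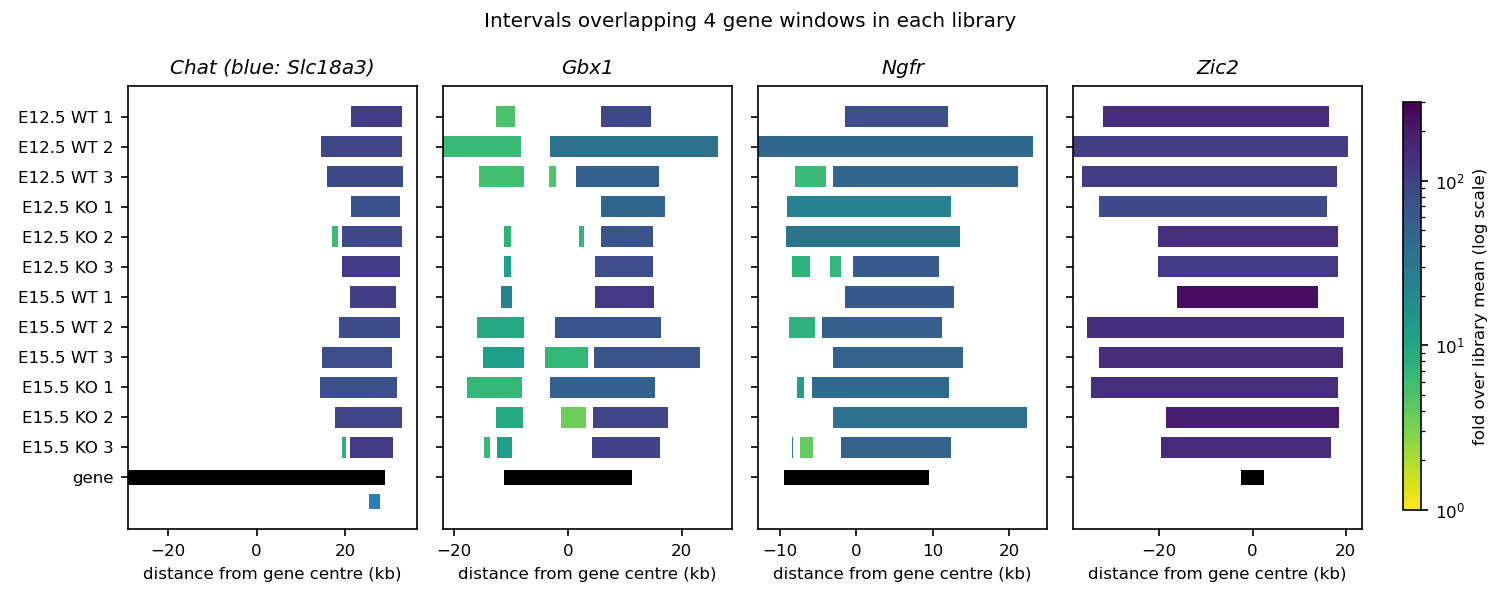
Intervals over the Chat, Gbx1, Ngfr and Zic2 windows in each of the 12 libraries (rows), as distance from the gene centre in kb (x axis), coloured by the count per 200 bp over the library mean on a log scale; black bars are genes and the blue bar is Slc18a3. The Chat intervals stay at one end of the gene in every library, the Ngfr and Gbx1 intervals change most in length, and the Zic2 intervals extend far past the gene on both sides.

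The loci differed in density. Density is the count per 200 bp divided by the library's mean count per 200 bp, and it can be compared between genes. Its mean over 12 libraries was 189 ± 34 (SD) for Gbx2, 114 ± 22 for Zic1, 90.7 ± 16 for Chat, 56.4 ± 22 for Gbx1 and 45.8 ± 13 for Ngfr. Zic2, at 144 ± 42, stood between Gbx2 and Zic1. Neighbours in this order overlapped in range. Gbx2 ran from 141 to 251 and Zic2 from 83.5 to 248, while Gbx1 ran from 26.4 to 105 and Ngfr from 24.4 to 77.0. The densities of Gbx2 lay above those of Chat, which ran from 72.7 to 117, in every library.

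Depth differed between libraries and so did other features. The mean count per 200 bp, recovered from the deposited scores, was lowest at 0.0751 (E15.5 WT replicate 1) and highest at 0.698 (E12.5 WT replicate 2), and the counts in intervals from 573838 to 6846250. Normalised counts below are the interval counts scaled to the mean of the 12 depths. Chromosome X held 18.1% to 24.5% of covered bases in the E12.5 KO libraries and 20.9% in E12.5 WT replicate 3, against at most 5.33% in the other 8. The members are autosomal, and the part of this difference in their values was not tested. As a check of the tissue, 9 of 10 MGE marker genes had an interval in all 12 libraries and none lacked one throughout, so the mark does not single out these genes as unmarked. Microglia markers had an interval in all libraries for 1 of 8. Over all autosomal genes, 12.06% had an interval in all 12 libraries and 61.23% in none.

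The first comparison asked whether deletion of Ezh2 lowered the mark at E12.5. No member passed the test at an adjusted p of 0.05 (edgeR quasi-likelihood test over 3140 genes, Benjamini-Hochberg), against 4.04% of all genes tested, all of which were lower in KO; with TMM factors 1.21% of genes were called lower and 0.287% higher. At an unadjusted p below 0.05 there were 2 members, Ngfr and Zic2, beside 905 of the 3140 genes tested. DESeq2 called 0 members, beside 5.6% of all genes. In simulated counts, 0.0% of 2-fold changes were recovered in this comparison. All 8 fitted changes, from 6 loci, were negative, with a median of -0.32 on the log2 scale, while the median of all genes was -0.57. With TMM factors, which centre the genes, the median of all genes became -0.05 and 6 of the 8, Chat, Slc18a3, Gbx1, Gbx2, Zic1 and Zic4, turned positive.

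Ngfr had the largest fitted change of the members at E12.5. Its normalised counts were 1341, 2080 and 1510 in WT and 680, 1007 and 913 in KO. All KO libraries lay below all WT libraries. The log2 change was -0.92 ± 0.30 (SE, n = 3 per group, edgeR adjusted p = 0.095), and -0.36 ± 0.17 with TMM factors (adjusted p = 0.32). Over the alternatives tried, its adjusted p ran from 0.029 to 0.47, and 4 of them called it, each with a larger share of all genes called than the 4.04% above. Among these were merged regions in place of gene windows (-0.82, adjusted p = 0.029; 10.7% of regions called), at least 50% of the interval required inside the window (adjusted p = 0.046; 7.4% of genes called) and the fit without E12.5 WT replicate 1 (-1.05, adjusted p = 0.047; 14.1% of genes called).

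Zic2 showed the same order of groups. Its normalised counts were 9587, 8336 and 8361 in WT and 5314, 6982 and 5678 in KO, with no overlap. The log2 change was -0.55 ± 0.22 (adjusted p = 0.14), close to the median of all genes, and it was -0.01 with TMM factors and 0.04 with DESeq2. Non-overlap with KO lower held for Ngfr and Zic2 among the 8 members, and for 33.0% of all genes tested, while 0.35% lay wholly higher in KO.

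The Chat, Gbx1, Gbx2 and Zic1 loci overlapped between genotypes at E12.5. Chat had 1691, 2133 and 1864 normalised counts in WT and 1039, 1555 and 1974 in KO, so that KO replicate 3 exceeded 2 of the WT libraries. Its log2 change was -0.32 ± 0.30 (adjusted p = 0.42). Gbx1 had 1033, 1473 and 1085 in WT and 677, 852 and 1053 in KO, a log2 change of -0.48 ± 0.30 (adjusted p = 0.26). KO replicate 3 again overlapped the WT range. Gbx2 had 9248, 8134 and 7735 in WT and 6027, 9004 and 7810 in KO, and Zic1 had 10629, 9529 and 9249 in WT and 7325, 10029 and 8006 in KO. Their log2 changes were -0.14 ± 0.23 (adjusted p = 0.64) and -0.21 ± 0.22 (adjusted p = 0.44). At each of these loci the lowest library was KO replicate 1.

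At E15.5 the genotypes lay closer together. No member passed the edgeR test, against 0.482% of 2695 genes, and DESeq2 called 0, beside 2.7% of all genes. No member had an unadjusted p below 0.05, beside 303 of the 2695 genes tested. Chat had 1436, 1404 and 1560 normalised counts in WT and 1649, 1857 and 1450 in KO, a log2 change of 0.17 ± 0.12 (adjusted p = 0.62). Ngfr, with the widest gap at E12.5, had 1145, 1149 and 1115 in WT and 1024, 1202 and 952 in KO, a log2 change of -0.10 ± 0.12 (adjusted p = 0.79). The ranges overlapped at both genes.

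The Gbx genes overlapped at E15.5, and Zic1 and Zic2 did not. Gbx1 had 1671, 1764 and 1910 in WT and 1384, 1717 and 1557 in KO (log2 change -0.20 ± 0.12). Gbx2 had 11747, 10817 and 10810 in WT and 9822, 12181 and 8498 in KO (-0.13 ± 0.14). KO replicate 2 lay above all WT libraries at Gbx2. Zic1 had 12287, 12149 and 11970 in WT and 10932, 11334 and 9536 in KO, a log2 change of -0.20 ± 0.10 (adjusted p = 0.49). Zic2 had 9786, 10086 and 10091 in WT and 9286, 9119 and 7119 in KO, a log2 change of -0.23 ± 0.12 (adjusted p = 0.51). For both genes every KO library lay below every WT library, as for 8.09% of all genes tested (11.1% lay wholly higher). WT libraries lay close together, and KO replicate 3, the deepest at this stage, was lowest. Every KO library was also deeper than every WT library at E15.5 (0.179 to 0.346 against 0.0751 to 0.150 mean counts per 200 bp). Genotype and depth therefore cannot be told apart at this stage. With depth as a covariate, edgeR called 0 genes in all. Zic4 overlapped because its window in E15.5 WT replicate 1 missed a second interval, with 11318 in that library.

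**Figure D3:**
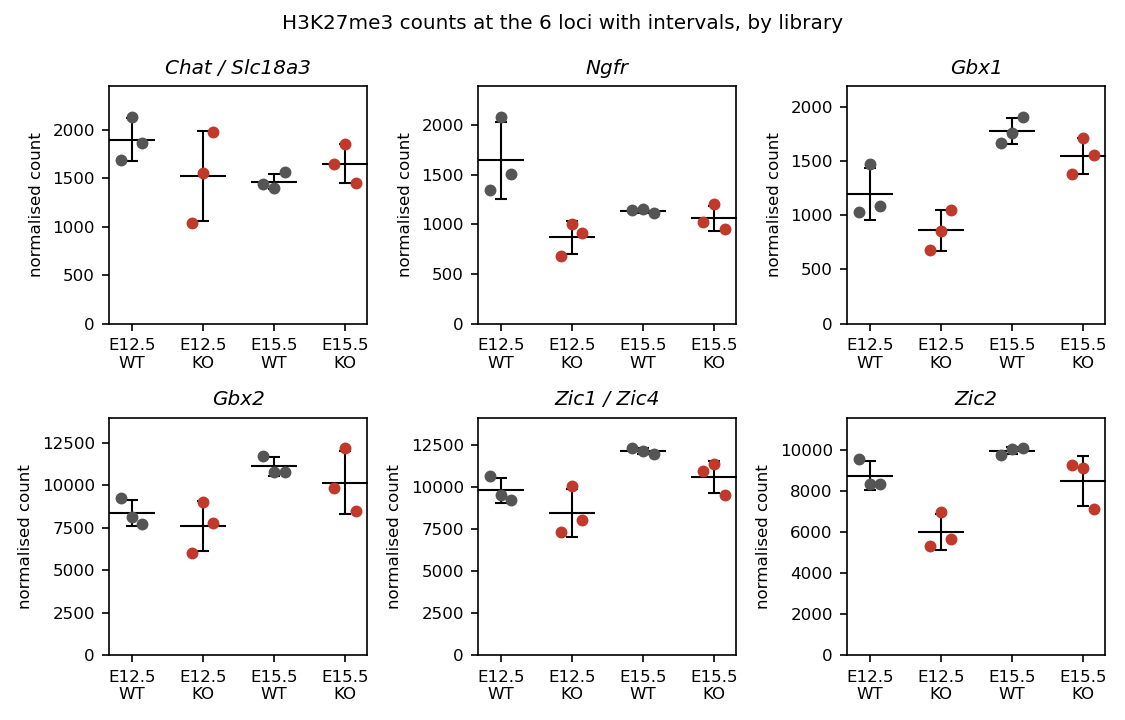
Normalised counts (y axes, linear from 0) at the 6 loci in each library (points, grey WT and red KO), with the group mean and SD of 3 libraries as bars. Ngfr and Zic2 at E12.5 and Zic1 and Zic2 at E15.5 are the loci where KO points lie wholly below WT points.

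Both stages fitted together, with stage as a term, gave no called member, against 0.963% of 2492 genes. DESeq2 called 0, beside 8.8% of all genes. At an unadjusted p below 0.05, beside 526 of the 2492 genes tested, there were 3 members. These were Zic2 (-0.39 ± 0.11, adjusted p = 0.11), Ngfr (-0.51 ± 0.19, adjusted p = 0.19) and Gbx1 (-0.34 ± 0.15, adjusted p = 0.22). Zic2 passed with merged regions (-0.31, adjusted p = 0.046; 6.67% of regions called), and Ngfr with depth as a covariate (-0.58, adjusted p = 0.041; 7.5% of genes called), an alternative added after seeing the data. Zic1, Gbx2 and Chat gave -0.20, -0.13 and -0.07, and with TMM factors these turned to 0.07, 0.13 and 0.19. The median of all genes was -0.29 with depth scaling, and TMM factors called 1.97% of genes lower and 2.13% higher in place of 0.923% and 0.0401%.

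Whether the genotype difference changed between stages was tested as an interaction. No member was called, against 0.562% of genes, and DESeq2 called 0, beside 1.7% of all genes. At an unadjusted p below 0.05, beside 686 of the 2492 genes tested, there was 1 member. That member was Ngfr, whose genotype difference was 0.82 ± 0.30 higher on the log2 scale at E15.5 than at E12.5 (adjusted p = 0.13). The median of all genes was 0.61. Without E12.5 KO replicate 3 the value was 0.86 (adjusted p = 0.046), but the median of all genes was then 0.84 and 38.4% of genes were called.

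Between stages in WT, Gbx and Zic loci held higher counts at E15.5 while Chat and Ngfr held lower ones. Of the 8 members, 3 were called, all higher at E15.5, against 1.71% of 2624 genes called higher and 35.8% called lower (10.3% and 17.1% with TMM factors). Gbx2 rose by 0.41 ± 0.10 (adjusted p = 0.024), Gbx1 by 0.57 ± 0.16 (adjusted p = 0.034) and Zic1 by 0.31 ± 0.09 (adjusted p = 0.040). Zic2 gave 0.19 ± 0.10 (adjusted p = 0.15), and Zic4 0.27 ± 0.10 (adjusted p = 0.061). Ngfr gave -0.53 ± 0.18 (adjusted p = 0.052) and Chat -0.37 ± 0.13 (adjusted p = 0.055), and both were near the median of all genes, -0.58. With TMM factors Chat turned to 0.10, and with DESeq2 Ngfr turned to 0.06.

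Groups did not overlap at any of the 8 members in this comparison. The 5 Gbx and Zic members lay wholly higher at E15.5, as did 3.93% of all genes, and Chat, Slc18a3 and Ngfr lay wholly lower, as did 52.0%. The calls rested on few libraries. Without E12.5 WT replicate 3, or without any 1 of the E15.5 WT libraries, 0 members were called (3.2% to 27.6% of all genes). Without E12.5 WT replicate 2, 1 was (23.3% of all genes), and without E12.5 WT replicate 1, 7 were (52.4% of all genes). Testing genes with an interval in any library left 0 called. Depth also differed between the stages, from 0.117 to 0.698 mean counts per 200 bp in E12.5 WT and from 0.0751 to 0.150 in E15.5 WT. With depth as a covariate, an alternative added after seeing the data, 1 member was called (18.3% of all genes). The median log2 change of all genes was then -0.24. The part of depth in the member values was not tested otherwise. Merged regions called all 8, which fall on 6 loci, with 47.7% of regions called. The log2 change at Gbx1 was 0.05 when at least 50% of each interval had to lie inside the window. Summed normalised counts of the MGE markers were 22000 to 25481 at E12.5 and 11484 to 14801 at E15.5 in these WT libraries. Their part in the member values, like that of the dissection, was not tested.

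In KO libraries the stage difference went the same way at Gbx1. Its counts of 677, 852 and 1053 at E12.5 and 1384, 1717 and 1557 at E15.5 did not overlap, with a log2 change of 0.85 ± 0.29 (edgeR adjusted p = 0.055). No member was called, against 9.62% of 3003 genes, 5.49% lower and 4.13% higher (7.69% and 8.82% with TMM factors). An unadjusted p below 0.05 was reached by 2 members, beside 595 of the 3003 genes tested. DESeq2 called 1, Gbx1, beside 18.8% of all genes. TMM factors (0.86, adjusted p = 0.0041) and merged regions (0.80, adjusted p = 0.028; 13.8% of regions called) also called Gbx1, and over all alternatives its adjusted p ran from 3.0e-06 to 0.30. Zic2 gave 0.51 ± 0.23 (adjusted p = 0.18) and also did not overlap, as held for 11.4% of all genes in this direction and 12.4% in the other. Gbx2 (0.42), Zic1 (0.33), Ngfr (0.29) and Chat (0.12) overlapped between stages.

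**Figure D4:**
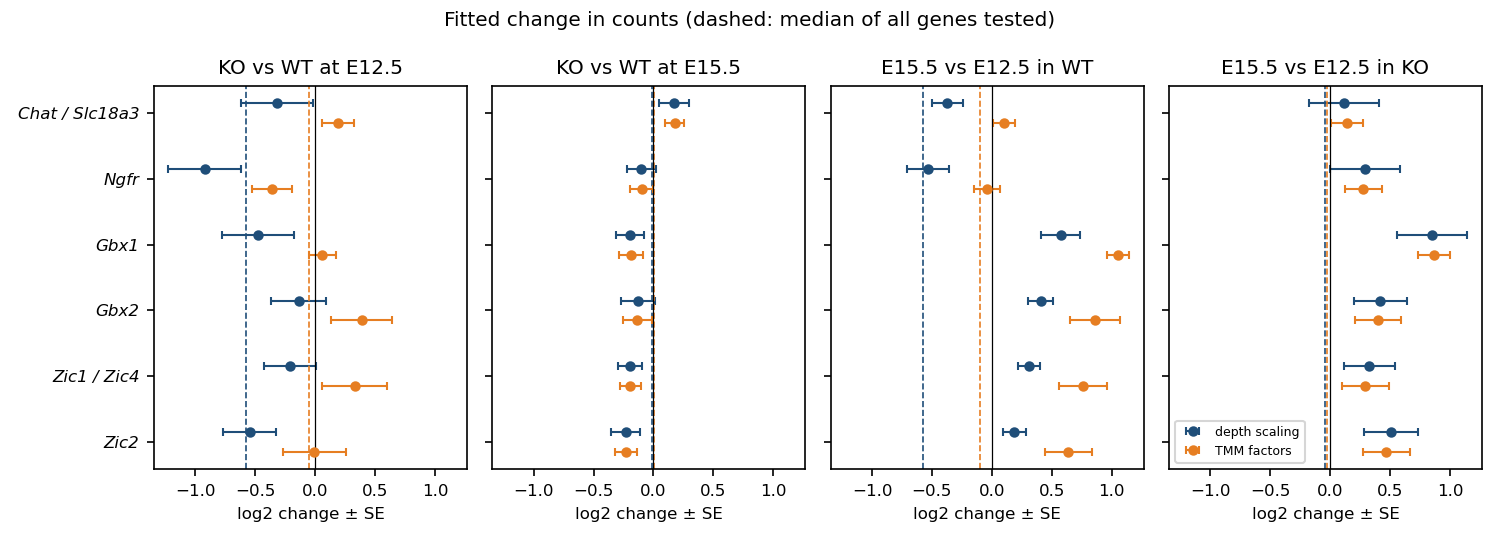
Fitted log2 change ± SE (x axes) at the 6 loci for 4 comparisons, with depth scaling (blue) and TMM factors (orange); dashed lines give the median of all genes under each scaling. At E12.5 KO against WT and between stages in WT, TMM factors move the 6 loci to the right together with the median of all genes, and at E15.5 the blue and orange values nearly coincide.

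Covered length gave no call at any member in any comparison (limma on log2 covered bases), against 0.599% of genes between stages in KO and 0 genes in the other comparisons. The windows of Slc18a3, Gbx2, Zic2 and Zic4 were full in all libraries, so covered length within them could not differ. At Gbx1 the mean covered length was 17.7 ± 5.7 kb in E12.5 WT and 9.35 ± 1.2 kb in E12.5 KO, and at E15.5 it was 18.5 ± 6.8 kb in WT and 17.7 ± 5.1 kb in KO (SD, n = 3).

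Other genes of the cholinergic pathway were called at E12.5 at about the share of all genes. Of a list of 37, covering acetylcholine enzymes and receptors, neurotrophins and lineage factors, 14 had an interval in all libraries and 11 in none. Over all autosomal genes the shares were 12.06% and 61.23%. At E12.5, 1 of 18 tested (edgeR) was lower in KO and 0 higher, beside 4.04% of all genes called lower, with a list median of -0.56 beside -0.57 for all genes. That gene was Bdnf, a neurotrophin, which fell by 1.49 ± 0.29 on the log2 scale (adjusted p = 0.011), from 2113 ± 331 to 750 ± 136 normalised counts. Without E12.5 KO replicate 1 the call was lost (-1.35, adjusted p = 0.069). It was also lost with genes in more than 60% of libraries and with no filter (0.1% and 0.3% of all genes called). DESeq2 also called Chrm4, higher in KO (5.6% of all genes). Over both stages edgeR called 0 of 14. TMM factors called Bdnf lower and Chrm4 higher, and DESeq2 these and Ntf3 higher (4.1% and 8.8% of all genes).

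Ache, Lhx8 and Isl1 did not pass at E12.5. Ache, acetylcholinesterase, gave -0.68 ± 0.37 (adjusted p = 0.21). Lhx8 and Isl1, LIM homeodomain factors of cholinergic differentiation, gave -0.29 ± 0.29 and -0.32 ± 0.27, and both turned positive with TMM factors (0.23 and 0.20). At E15.5, edgeR and DESeq2 called 0 of 14, with values from -0.31 to 0.67. In edgeR 1 had an unadjusted p under 0.05, beside 303 of the 2695 genes tested. Summed over the list, counts were 9780 to 13269 in E12.5 WT and 5837 to 8890 in E12.5 KO, without overlap.

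Of 15 relatives and partners of the Zic and Gbx genes, 14 had an interval in all libraries, beside 12.06% of all autosomal genes. At E12.5, 2 of 15 were lower in KO and 0 higher (edgeR), beside 4.04% of all genes called lower, or 1.21% with TMM factors, under which the same 2 were called. They were Gli2 and Gli3, zinc finger effectors of Hedgehog signalling from the same superfamily as the Zic proteins. Gli2 fell by 1.70 ± 0.30 (adjusted p = 0.0062), from 3301 ± 680 to 1013 ± 209 normalised counts, and Gli3 fell by 3.03 ± 0.48 (adjusted p = 0.0027) from a low 191 ± 53 to 23.6 ± 13. Without E12.5 KO replicate 1 neither passed, with log2 changes of -1.55 and -2.99 (adjusted p = 0.060 and 0.12), and 0.3% of all genes were called. At E15.5, edgeR called 0 of 14, with 1 at an unadjusted p under 0.05, beside 303 of the 2695 genes tested. DESeq2, which called 2.7% of all genes, called 1, Gli2 (-0.54, adjusted p = 0.0050, with edgeR -0.51, adjusted p = 0.38). Over both stages Gli2 gave -1.11 ± 0.23 (adjusted p = 0.043), a call lost in 9 of the 12 refits that left out a library, for example -0.96 (adjusted p = 0.076) without E12.5 KO replicate 1. Zic5, in the Zic2 interval, gave -0.43 ± 0.23 at E12.5 (adjusted p = 0.20), and 0.10 with TMM factors.

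Markers of neighbouring tissues were summed at E12.5, where the median change of all genes was -0.57. Summed counts over 8 genes of the lateral ganglionic eminence and septum were 13478 to 15333 in WT and 7636 to 9920 in KO, and over 8 pallial genes 32423 to 40382 and 25230 to 32085. Endothelial sums were 2832 to 3813 and 1697 to 2963, those of meninges and mesenchyme 15231 to 22178 and 11026 to 13866, and those of microglia 129 to 332 and 38 to 115. MGE marker sums were 22000 to 25481 in WT and 23737 to 34328 in KO. Genes with equal values, such as Dlx5 and Dlx6, both enter a sum. The sums are weighted to genes with high counts, such as Ebf1 (7946 in WT and 4071 in KO) in the first list. In that list Gsx2 went the other way (1060 and 1487), and 5 of 6 genes tested had a negative change. Foxc2 (11750 ± 3636 and 6021 ± 626) weighed most in meninges and mesenchyme, where 5 of 5 tested were negative. Of 8 microglia markers, 4 had an interval in no library, as did 3 of 8 endothelial markers, beside 61.23% of all autosomal genes. The part of tissue composition in the member values was not tested.

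Log2 depth-scaled counts of Gbx2 and Zic1 correlated at r = 0.94, Zic1 and Zic2 at 0.93, Chat and Ngfr at 0.73, Ngfr and Zic2 at 0.57, and Chat and Zic1 at 0.11. These are descriptions over 12 libraries in which stage, genotype and depth vary together. Of 2492 genes, those most like Gbx1 were Sall4 (r = 0.98) and Nptx1 (0.97). The nearest to Gbx2 were Skor2 (0.98) and Foxb1 (0.97), and to Zic1 they were Zdbf2 (0.97) and Skor2 (0.97). Zic2 was most like Zic4 (0.93) and Zic1 (0.93), on another chromosome. Chat was most like Stox2 (0.95) and Kcnk9 (0.94), and Ngfr most like Tlx2 (0.94) and Dqx1 (0.94).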

How the data were processed

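Each of the 12 libraries has its own interval list. Per the submitters' processing notes, reads were handled with cutadapt, Bowtie2, SAMtools, Picard, deepTools and SICER on GRCm38/mm10; versions and thresholds are not given in the sources used here. The count of each interval was deposited by the authors as a raw whole number. The score of each interval, also deposited by the authors, was used to recover depth: in intervals of a single 200 bp window it equalled minus the natural log of the Poisson probability of that count, given 1 mean for each library, with a largest misfit of 0.0036. That this mean is proportional to total reads is an assumption.

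Counts of intervals overlapping a gene body extended by 2500 bp were summed per gene, and whole intervals were counted where they ran past the window. Autosomal genes with an interval in every library compared were tested with edgeR 4.0.16 (quasi-likelihood, library sizes proportional to depth, Benjamini-Hochberg adjustment, threshold 0.05) in R 4.3.3. Covered bases were tested with limma 3.58.1 on the log2 scale. The scripts were tested on simulated counts in which 200 genes were changed 2-fold or 4-fold and the others left flat. Of 2-fold changes, 0.0% were recovered for KO against WT at E12.5, for the interaction and between stages in WT. The share was 18.0% at E15.5, 63.5% over both stages and 11.0% between stages in KO. Of 4-fold changes, 74.5% were recovered for the interaction and 94.0% to 98.0% elsewhere. The data differ from this setting, with a median log2 change of all genes of -0.57 at E12.5. Between stages in WT, the fit of the data called members with log2 changes of 0.31 to 0.57. These shares are therefore not the power of the fits on the data, and a member without a call may still have changed. Alternatives included TMM factors, DESeq2 1.42.0, other filters and windows, merged regions, a replicate block and leaving out each library; depth as a covariate for counts and whole interval widths were added after seeing the data. Intervals give no count outside them, so a gene without an interval has no value.

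Besides the members, genes of the 2 pathway lists past the threshold in a KO against WT comparison are named (up to 5 per list), with Zic5, Ache, Lhx8 and Isl1 always, and the 2 genes on other chromosomes most correlated with each locus; 1 further gene of this rule is not reported here. The members and lists were chosen with earlier results of these data known. Gene positions are from RefSeq GRCm38.p6, counted from 1.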

Additional observations from a re-analysis of the deposited data

How the results depend on the processing

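Coverage of the members by an interval in all 12 libraries dropped from 8 to 3 (Ngfr, Chat and Gbx1) when at least 50% of each interval had to lie inside the window, since broad intervals exceed short windows. KO against WT at E12.5 called 1 member, Ngfr, in place of 0 with that rule and with merged regions, and leaving out each library gave 0 to 1 (0.3% to 28.7% of all genes, 4.04% in the reported fit). With TMM factors and with DESeq2, respectively, log2 changes at E12.5 turned to 0.19 and 0.25 at Chat, 0.0605 and 0.12 at Gbx1, 0.39 and 0.44 at Gbx2, 0.33 and 0.38 at Zic1, 0.10 and 0.15 at Zic5, 0.23 and 0.29 at Lhx8 and 0.20 and 0.26 at Isl1, while Zic2 turned to 0.0449 with DESeq2 alone. These scalings move the median of all genes from -0.57 to -0.05 and 0.02. Gbx2 also turned to 0.0539 with counts in proportion to the bases inside the window and to 0.0059 without E12.5 KO replicate 1 (range over left-out libraries -0.28 to 0.0059). At E15.5, Gbx1 turned to 0.37 with the 50% rule, and with depth as a covariate Gbx2 turned to 0.10 and Ngfr to 0.0053. Over both stages, 1 member was called with merged regions (Zic2) and 1 with depth as a covariate (Ngfr), and TMM factors and DESeq2 turned Chat to 0.19 and 0.21, Gbx2 to 0.13 and 0.14 and Zic1 to 0.0723 and 0.0839; Chat was 0.0496 without E12.5 KO replicate 1 (range -0.14 to 0.0496). For the interaction, leaving out a library gave 0 to 1 called (0% to 38.4% of all genes). Between stages in WT, in place of 3 (37.5% of all genes in the reported fit), DESeq2 called 5 (29.0% of all genes). Genes with an interval in more than 60% of libraries gave 1 (13.2%), no filter 0 (2.2%) and counts in proportion 1 (32.5%). Merged regions gave 8, on 6 loci (47.7% of regions), depth as a covariate 1 (18.3%) and leaving out a library 0 to 7 (3.2% to 52.4%). Chat turned to 0.10 with TMM factors and 0.20 with DESeq2, and Ngfr to 0.0594 with DESeq2. Between stages in KO, Gbx1 was the 1 member called, in place of 0, with TMM factors (16.5% of all genes called) and DESeq2 (18.8%). The same held for counts in proportion (8.3%), a 5000 bp extension (9.7%), the 50% rule (10.2%) and the same number of top-scoring intervals (10.9%). It also held for merged regions (13.8% of regions) and covered bases by whole interval width with depth as a covariate (61 of 3003 genes). Leaving out a library gave 0 to 1 called (5.7% to 8.9% of all genes). Chat turned to -0.10 without E12.5 KO replicate 1 (range -0.10 to 0.35) and Gbx2 to -0.0362 with counts in proportion. Except where stated, the cause was not tested. The other results, 720 of 821 comparisons of a gene's change and 184 of 213 counts of members, kept their direction and side of the threshold.

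Same-numbered libraries did not deviate together at both stages: correlations of deviations were 0.02 to 0.23 at E12.5 and -0.35 to -0.20 at E15.5, so the numbers were not taken as a pairing. With a replicate block, 1 member was called at E12.5 (Ngfr, -0.92, adjusted p = 0.049), and 305 genes in all in place of 127, whereas 0 genes were called at E15.5 in place of 13. Counts over all genes at E12.5 also rested on single libraries, with 902 called without E12.5 KO replicate 3.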
